A study of Homo sapiens with 7 samples.

Results

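The B2/B3 bins are the 50 kb stretches of the genome that the authors placed in the inactive interaction cluster named B2/B3, from Hi-C contacts of untreated DLD-1 cells. Members were the bins inside the deposited intervals of that name, matched by chromosome and start to the deposited table of cluster codes. They numbered 16954 of 46042 clustered bins (36.8%), covered 847.7 Mb, and made B2/B3 the most frequent of the 5 names. Another 11467 of the 57509 bins in the table had no cluster. The clustering of contacts chose the members, so membership is described here and not tested.

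DLD-1 is an established colorectal adenocarcinoma cell line. In the DNMT1-AID cells, the maintenance DNA methyltransferase DNMT1 carries a degron tag, so that auxin leads to its degradation. The 7 libraries were DNMT1-AID cells without auxin, with auxin for 4 d, with auxin for 10 d, and with auxin for 4 d followed by washout for 4 d, and DNMT1-AID cells that also lack the methyltransferase DNMT3B, without auxin and with auxin for 4 d and 10 d. All 7 share the degron allele. With 1 library for each condition, differences between conditions have no replicate check and were not tested. The clusters came from the untreated DNMT1-AID library alone. The untreated knockout library is grouped by its title, since its genotype label names the DNMT1-AID allele only. The labels do not say how many clones stand behind each line. Depth ranged from 27345260 contacts after washout to 222645438 contacts in DNMT1-AID cells after 4 d of auxin, with 114710963 contacts in the library behind the clusters.

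Interphase chromosomes separate into an active A compartment and an inactive B compartment, whose stretches contact their own kind more than the other. The B2 and B3 subcompartments are the parts of the B compartment that replicate late, carry few active histone marks and lie largely at the nuclear lamina, with B2 also at the nucleolus. In many cancer lines such stretches overlap the partially methylated domains, where DNA methylation is lost over many cell divisions. B4 was first described as a small class of zinc finger gene clusters on chromosome 19, and A1 and A2 are the active classes. In these files the name B4 also covers bins elsewhere, such as the protocadherin array of chromosome 5. The name V+VI stands for an intermediate pair of classes whose meaning the labels do not give.

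Sequences before gene starts are shown first because B2/B3 genes and the rest differed in their CpG content. All are from the RefSeq promoter table of GRCh38, lie directly upstream of the annotated gene and outside it, and are written 5′ to 3′ in the direction of the gene. The first 4 hold the 250 bases before the start, with each CG in capitals. OR10R2, an odorant receptor gene in B2/B3, has the lowest CpG ratio of the listed B2/B3 genes (chr1:158471970-158472219, plus strand). FCRL5, an Fc receptor-like gene of B cells in B2/B3, lies nearest the B2/B3 median (chr1:157552516-157552765, minus strand). ZNF883, a zinc finger gene in B2/B3, has the highest ratio of the listed B2/B3 genes (chr9:113012193-113012442, minus strand). PRPF18, a splicing factor gene in V+VI, lies nearest the median of genes in the other clusters (chr10:13586715-13586964, plus strand).
OR10R2: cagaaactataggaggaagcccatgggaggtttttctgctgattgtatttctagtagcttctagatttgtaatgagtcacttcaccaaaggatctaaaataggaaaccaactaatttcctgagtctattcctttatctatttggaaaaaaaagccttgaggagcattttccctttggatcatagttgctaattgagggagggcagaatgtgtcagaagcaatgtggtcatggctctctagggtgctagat
FCRL5: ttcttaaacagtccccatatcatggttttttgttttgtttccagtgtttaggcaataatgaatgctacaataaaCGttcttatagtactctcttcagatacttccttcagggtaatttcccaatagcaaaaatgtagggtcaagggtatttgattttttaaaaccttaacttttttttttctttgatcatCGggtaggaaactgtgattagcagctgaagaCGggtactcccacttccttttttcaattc
ZNF883: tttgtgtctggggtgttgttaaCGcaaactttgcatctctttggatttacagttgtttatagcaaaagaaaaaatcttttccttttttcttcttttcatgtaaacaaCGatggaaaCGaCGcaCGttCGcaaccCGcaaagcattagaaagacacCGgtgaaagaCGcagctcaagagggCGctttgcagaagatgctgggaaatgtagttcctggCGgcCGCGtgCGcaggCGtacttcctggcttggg
PRPF18: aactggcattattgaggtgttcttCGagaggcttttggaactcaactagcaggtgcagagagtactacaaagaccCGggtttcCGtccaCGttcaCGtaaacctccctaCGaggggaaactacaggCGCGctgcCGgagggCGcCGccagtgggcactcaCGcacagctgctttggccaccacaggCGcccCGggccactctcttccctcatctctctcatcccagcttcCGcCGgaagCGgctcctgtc

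The CG count rises from 0 in OR10R2 and 3 in FCRL5 to 15 in ZNF883 and 17 in PRPF18. The CpG ratio, the CG count divided by that expected from the C and G content, was 0 in OR10R2, 0.398 in FCRL5, 1.13 in ZNF883 and 0.767 in PRPF18. OR10R2 was not alone at the floor: 60 of the 259 listed B2/B3 genes with a promoter at their outer end had a ratio of 0, and it came first by position.

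The second set shows 4 keratin-associated protein genes, which encode proteins of the hair shaft and lie side by side in 1 B2/B3 run on the long arm of chromosome 21. The 60 bases before the start are printed, with TATAAA in capitals. They are the first 4 of the block by position whose last 60 bases hold these letters. KRTAP24-1 lies at chr21:30282951-30283010 (minus strand), KRTAP13-1 at chr21:30395971-30396030 (plus strand), KRTAP13-4 at chr21:30430160-30430219 (plus strand) and KRTAP19-1 at chr21:30480368-30480427 (minus strand).
KRTAP24-1: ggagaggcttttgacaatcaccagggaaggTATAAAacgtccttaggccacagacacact
KRTAP13-1: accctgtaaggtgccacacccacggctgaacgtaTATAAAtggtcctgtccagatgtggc
KRTAP13-4: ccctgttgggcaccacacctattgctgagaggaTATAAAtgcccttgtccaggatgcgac
KRTAP19-1: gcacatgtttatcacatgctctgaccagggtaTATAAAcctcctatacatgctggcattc

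The first letter of TATAAA stood 30, 26, 27 and 28 bases before the start in these 4 genes, in the order printed. Among the 30 windows of the block, 18 held TATAAA in the last 60 bases, at 26 to 60 bases before the start. A match of letters is a description of the sequence and shows no binding.

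The name B2/B3 joined 3 codes of the authors' 9-cluster column. Code 1 held 8086 bins (47.7% of B2/B3), code 0 held 4817 bins (28.4%) and code 2 held 4051 bins (23.9%). No bin of codes 0, 1 or 2 had another name, and no other code was named B2/B3. The other names were made the same way: V+VI joined codes 3 and 4, A2 joined codes 6 and 7, B4 was code 5 and A1 was code 8. The 4121 deposited B2/B3 intervals were runs of 1 code each, so neighbouring intervals often share the name.

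The 5-cluster column was a separate clustering and not the source of the 5 names. Code 1 fell almost whole into its code 0 (8071 of 8086 bins, 99.8%), and code 2 into its code 1 (4046 of 4051 bins, 99.9%). Code 0 was divided, with 2765 bins (57.4%) beside code 2, 1485 bins (30.8%) beside code 1, 560 bins (11.6%) with the code that is mainly V+VI and 7 bins with the code that is mainly A2. Codes 0 and 1 of the 5-cluster column held 17462 bins, of which 93.8% were B2/B3, and 96.7% of B2/B3 bins were in them. With the table divided into 3 clusters, 1 code held 96.4% of B2/B3 bins. With 14 clusters, the codes that were mostly B2/B3 held 84.0% of them, the lowest share among the 17 columns.

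The table also has 17 order columns, one beside each code column. Read in that order, the rows were sorted by code in 17 of 17 columns. Within each of the 3 B2/B3 codes of the 9-cluster column, the order followed the distance from the centromere with a Spearman's rho that rounds to 1. No column held the eigenvector values behind the clusters.

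The 3 codes within B2/B3 occupied successive zones along the chromosome arms. The median distance from the centromere was 19.98 Mb for code 1, 50.5 Mb for code 0 and 85.9 Mb for code 2. Code 1 held 90.3% of the 6811 B2/B3 bins under 30 Mb from the centromere, and 16 of 5210 bins (0.307%) at 60 Mb or more. Code 2 held 6 bins under 30 Mb and 3621 bins (69.5%) at 60 Mb or more. Code 0 was most frequent between them, with 52.5% of the 4933 bins at 30 to 60 Mb.

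**Figure D1:**
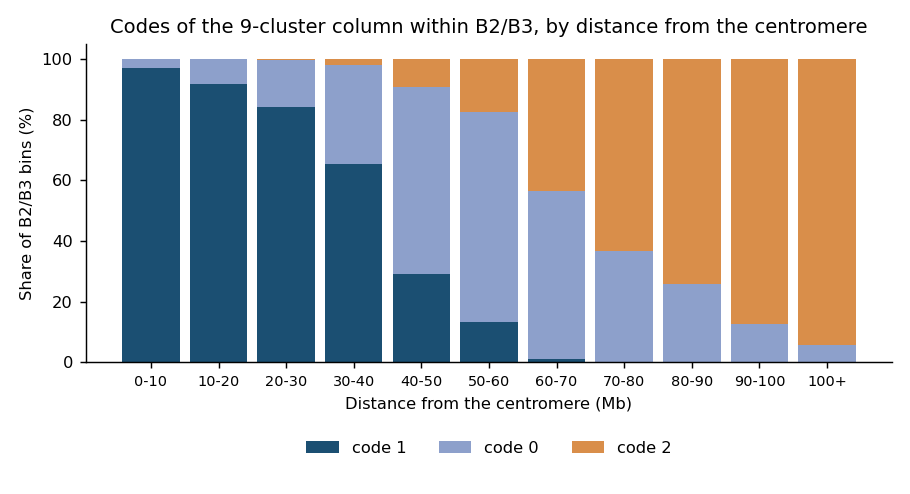
Share of B2/B3 bins (y axis, percent) with code 1, 0 or 2 of the 9-cluster column in steps of 10 Mb from the centromere (x axis); the last bar holds all bins at 100 Mb or more. Code 1 falls from 97.1% within 10 Mb to 1.04% at 60 to 70 Mb, and code 2 rises to 94.2% at 100 Mb or more.

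The same order appeared arm by arm. Of 17 arms with at least 20 bins of each code, 16 had their median distances in the order code 1, code 0, code 2. The exception was 15q, where code 2 had a median of 73.5 Mb and code 0 one of 76.2 Mb. All 13 arms under 50 Mb with at least 20 B2/B3 bins had over 90% code 1, from 95.7% to 100%. Among the 24 longer arms with as many, 2 did, and the lowest share was 4.60%. On chromosomes 20, 21 and 22 every B2/B3 bin had code 1.

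The other names that join codes were zoned likewise. Under 30 Mb, code 4 made up 97.8% of V+VI bins and code 6 made up 92.7% of A2 bins. At 60 Mb or more, code 3 made up 98.3% of V+VI bins and code 7 made up 98.9% of A2 bins. The division by distance is therefore not particular to B2/B3, and protein-coding gene density was nearly the same in its 3 codes, at 1.74, 1.72 and 1.68 genes per Mb in codes 0, 1 and 2.

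As a whole, B2/B3 lay neither at centromeres nor at telomeres. Its median distance from the centromere was 39.0 Mb (38.9 Mb for all clustered bins), and its median distance from the telomere was 39.9 Mb (35.8 Mb for all). Within 5 Mb of a telomere lay 657 B2/B3 bins (3.88%, exact binomial 95% interval 3.59% to 4.18%), against 6.22% of all clustered bins and 23.7% of A1. Within 5 Mb of a centromere lay 586 bins (3.46%, interval 3.19% to 3.74%), against 3.23% of all and 28.0% of the 282 B4 bins. This small surplus at the centromere turned with the distance used: within 2 Mb the shares were 0.0885% against 0.219%, and within 10 Mb 9.58% against 10.3%. The intervals cover counting error only and treat bins as independent, which neighbouring bins are not. Many bins next to centromeres had no cluster, so these shares describe the clustered bins alone.

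B2/B3 bins came in long runs. Uninterrupted by another name or an unclustered bin, they formed 1371 runs with a median of 5 bins, or 250 kb (exact 95% interval of the median 250 to 300 kb). The medians were 150 kb for V+VI and 100 kb for A1, A2 and B4. Most bins lay in the long runs: 281 runs of 1 Mb or more held 65.9% of B2/B3 bins, 38 runs reached 3 Mb, and 339 runs were a single bin. A2 came close, with 62.1% of its bins in runs of 1 Mb or more and 31 runs of 3 Mb or more. For V+VI, no run reached 3 Mb and 29.4% of bins lay in runs of 1 Mb or more.

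Code 0 was more frequent at the rims of the runs than inside them. Of its own bins, 24.6% lay at a run end, against 10.1% of code 1 bins and 9.82% of code 2 bins. Code 0 made up 49.3% of the 2403 bins at the end of a run and 17.7% of the 5548 bins at least 10 bins inside one. Code 1 went the other way, from 34.1% at ends to 56.7% inside, as did code 2, from 16.6% to 25.6%. Stretches of code 0 had a median of 1 bin and reached at most 1.3 Mb, while stretches of code 1 reached 5.45 Mb and stretches of code 2 reached 4.75 Mb. Runs made of code 0 alone numbered 410 and held 6.44% of the bins.

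The neighbours of B2/B3 were nearly all V+VI. Of 2742 run ends, 580 met an unclustered bin and 2162 met a cluster, which was V+VI at 2107 ends (97.5%), B4 at 30 and A2 at 25. None met A1. On both sides, 911 runs had V+VI as the neighbour. Seen from the other side, 53.4% of the clustered ends of V+VI runs, 28.0% of those of B4 and 1.02% of those of A2 met B2/B3.

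The share of B2/B3 differed widely between chromosomes. It was highest on chromosome 4 (49.8% of clustered bins), chromosome 8 (47.2%), chromosome 18 (47.2%) and chromosome 21 (45.7%). It was lowest on chromosome 22 (3.86%), chromosome 19 (7.78%) and chromosome 17 (13.5%). Among the 38 arms with at least 100 clustered bins, 5p had the highest share (65.3%) and 19p the lowest (1.84%). Arms of 1 chromosome could differ: 9p had 51.6% and 9q 17.8%, and 6q had 45.9% and 6p 22.2%. Across the 38 arms, the share fell with protein-coding gene density (Pearson r -0.76, Spearman rho -0.68, gene density on the log2 scale) and was higher on longer arms (r 0.44, rho 0.47). These are descriptions of 1 clustering, since all arms share a library.

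**Figure D2:**
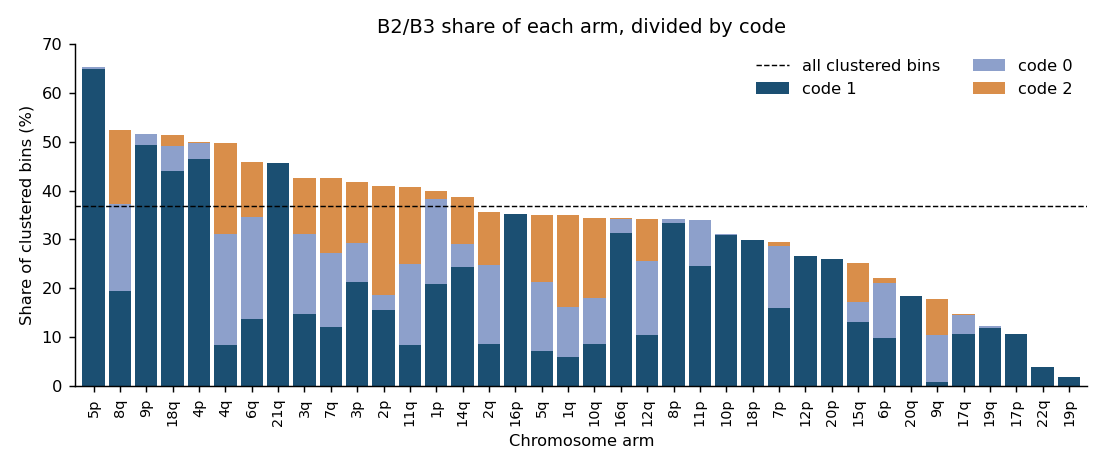
B2/B3 bins as a share of the clustered bins (y axis, percent) of each of 38 chromosome arms (x axis), stacked by code of the 9-cluster column, with the dashed line at the 36.8% of all clustered bins. The share falls from 65.3% on 5p to 1.84% on 19p, and in arms under 50 Mb the B2/B3 bins have code 1 almost alone.

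Some of the genome could not be assigned. Chromosome 13 had no clustered bin although 1861 of its bins had valid contacts, and the first 41.75 Mb of chromosome 1 and chr2:31500001-72050000 were also unclustered. Chromosome X was not in the table. Genes there enter no count by cluster below. The gene densities of whole arms and chromosomes do count the genes in their unclustered stretches.

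The longest run spanned 6.45 Mb at chr4:58950001-65400000 (27 bins of code 0, the rest of code 1), with V+VI on both sides. It held the leftmost coordinates of 4 protein-coding genes, whichever their strand. Among them were ADGRL3, an adhesion receptor of neurons, EPHA5, an ephrin receptor of axon guidance, and TECRL, a gene of heart muscle. The next, of 6.1 Mb at chr16:59550001-65650000, held only CDH8 and CDH11, both cadherins, which are calcium-dependent adhesion molecules. The third, of 6 Mb at chr1:186450001-192450000, held 5, including BRINP3, a gene of the nervous system, the phospholipase gene PLA2G4A, and RGS18 and RGS21, regulators of G protein signalling. These 3 runs also held 60 annotated lncRNA genes, counted as 16, 25 and 19. Among the 10 longest runs, protein-coding density lay between 0.189 and 0.842 genes per Mb.

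B2/B3 was the gene-poorest of the 5 names. Of 15931 protein-coding genes placed in a clustered bin by their leftmost coordinate, 1454 lay in B2/B3 (9.13%, exact binomial 95% interval 8.68% to 9.58%), on 36.8% of the bins. That is 1.72 genes per Mb, against 6.15 in V+VI, 9.77 in A2, 18.3 in B4 and 25.6 in A1. No protein-coding gene had its leftmost coordinate in 15701 of the 16954 bins (92.6%). No part of a protein-coding gene lay in 62.7% of the bins. Placing genes by any overlap raised the share to 11.1%. The 9.13% is the level against which each gene list is read below.

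Gene density also fell within B2/B3 from small runs to large ones and from rim to interior. Single-bin runs held 3.54 protein-coding genes per Mb, runs of 2 to 19 bins 2.58, runs of 20 to 59 bins 1.497, and runs of 60 bins or more 0.573. Bins at a run end held 3.05 genes per Mb, bins 1 to 9 bins inside held 1.89, and bins at least 10 bins inside held 0.847. The innermost bins thus had a lower density than any cluster as a whole.

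Among the other gene classes, lncRNA genes and pseudogenes had a larger share in B2/B3 than protein-coding genes. B2/B3 held 3704 of 14532 clustered lncRNA genes (25.5%) and 2598 of 10881 pseudogenes (23.9%), against 161 of 1472 miRNA genes (10.9%) and 109 of 930 snoRNA genes (11.7%). Transfer RNA genes, which supply the translation machinery, were the rarest, with 5 of 295 (1.69%, interval 0.553% to 3.91%). With all annotated gene classes counted, the share was 18.1%.

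The lengths of B2/B3 genes were spread more widely than those of all clustered genes. The median length was 44.7 kb (exact 95% interval 36.3 to 51.6 kb), with quartiles of 7.21 and 194.1 kb, against a median of 26.7 kb and quartiles of 9.75 and 70.4 kb for all clustered genes. Genes over 500 kb made up 9.49% of B2/B3 genes and 1.68% of all. Of the 268 such genes, 138 (51.5%) lay in B2/B3. At the other end, 187 genes (12.9%) were under 2 kb, against 5.07% of all. Without olfactory receptors and keratin-associated proteins, the B2/B3 median was 65.8 kb, against 26.4 kb for the other clusters.

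The longest B2/B3 genes lay almost whole in B2/B3, with AGBL4 as the exception among those named. CNTNAP2, which organises axonal potassium channels, spans 2.30 Mb, and 42 of the 47 bins it crosses were B2/B3. PTPRD, a receptor phosphatase of synapses, spans 2.30 Mb with 47 of 47 bins, and DLG2, a postsynaptic scaffold, spans 2.17 Mb with 43 of 44. CSMD1 spans 2.06 Mb with 42 of 42 bins, and the lipoprotein receptor-like gene LRP1B spans 1.90 Mb with 36 of 39. The catenin CTNNA3 (1.85 Mb, 37 of 38 bins), PCDH15 of the inner ear hair cell (1.83 Mb, 37 of 37) and the reelin adaptor DAB1 (1.552 Mb, 30 of 32) are also among them. AGBL4 (1.501 Mb) has its leftmost coordinate in B2/B3 but only 15 of 31 bins there. Of the 20 longest clustered genes, 12 lay in B2/B3.

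Gene lists differed widely in their share in B2/B3. Over 32 lists with at least 5 clustered members, 19 had a higher share in B2/B3 than the 9.13% of all genes, 5 had a lower share and 8 had no member there. With genes placed by midpoint, 19 were again above. Some of the lists above cannot be told from the background share. The intervals of cytochrome P450 genes (5 of 50, 10%), taste receptors, non-clustered protocadherins and SOX genes include 9.13%. Intervals on list shares treat genes as independent, and members of a tandem cluster are not.

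**Figure D3:**
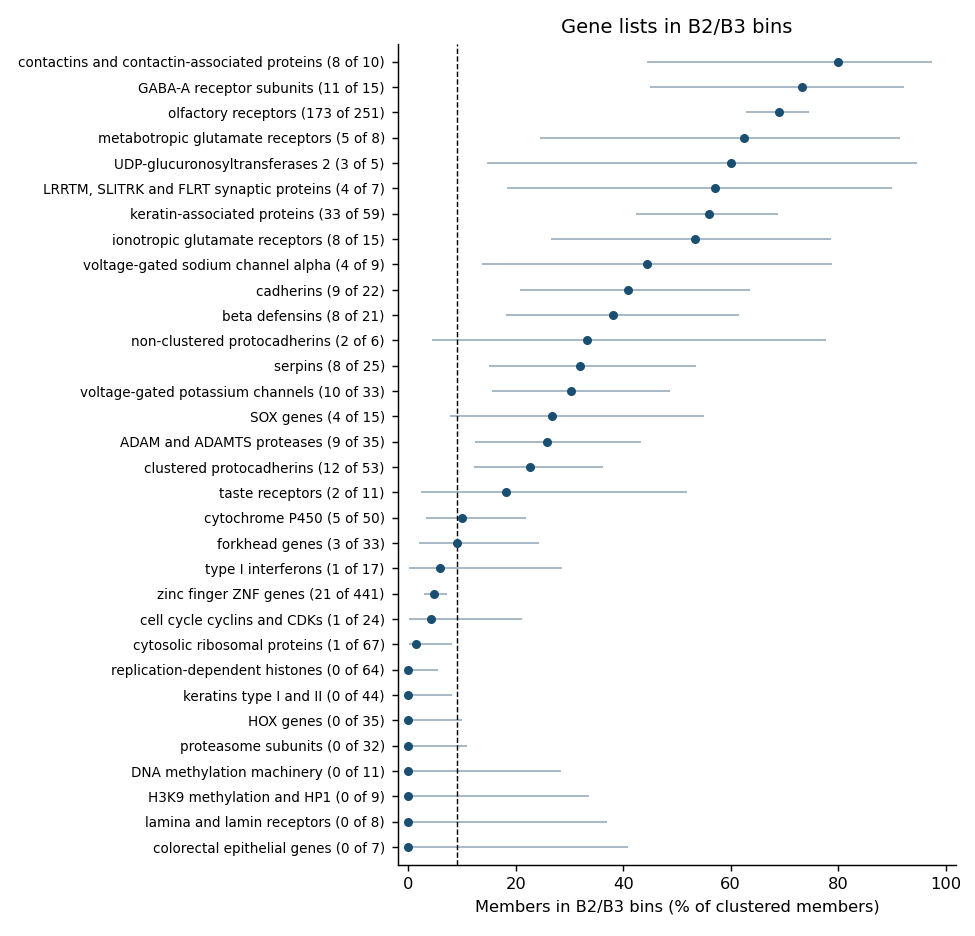
Share of the clustered members of 32 gene lists that lie in B2/B3 bins (x axis, percent) with exact binomial 95% intervals, each list on a line of the y axis with its count. The dashed line marks the 9.13% of all clustered protein-coding genes; contactins (80.0%), GABA-A receptor subunits (73.3%) and olfactory receptors (68.9%) lie highest, and 8 lists lie at 0.

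Among the sensory lists, olfactory receptors, the receptors for odorants, were the largest. B2/B3 held 173 of 251 (68.9%, interval 62.8% to 74.6%), in 23 runs on 9 chromosomes, with 99 in code 1, 62 in code 2 and 12 in code 0. The share depended on the chromosome: 42 of 43 on chromosome 1, 73 of 82 on chromosome 11 and 20 of 25 on chromosome 9 lay in B2/B3. On chromosome 19 it was 1 of 19, and on chromosome 17 it was 0 of 11. The longest run that holds any, chr11:123500001-124600000, has 22, beginning with OR6X1, OR6M1, OR8D4 and OR4D5. These 22 genes have code 2. Taste receptors had 2 of 11 (18.2%, interval 2.28% to 51.8%), with TAS2R16 as the example, and vomeronasal receptors 0 of 3.

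Receptors of synapses were placed by subunit. Of 15 GABA-A receptor subunits, which form the chloride channels of inhibitory synapses, 11 lay in B2/B3, 7 of them in code 1 and 4 in code 2. GABRG1, GABRA2, GABRA4 and GABRB1 lay together in the run chr4:44750001-47400000 of 2.65 Mb, which had code 1 at their leftmost coordinates. The other 4 subunits, GABRP and the rho subunits GABRR1, GABRR2 and GABRR3, lay in V+VI or A2.

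Ionotropic glutamate receptors, the cation channels of excitatory synapses, divided by gene. B2/B3 held 8 of 15, among them GRIA1, GRIA2, GRIA4, GRIK1, GRIK2, GRID1 and GRIN2A. GRIN2C, GRIN2D, GRIN3B and GRIK5 lay in A1, and each of these spans under 100 kb, from 9.31 kb for GRIN3B to 71.9 kb for GRIK5. Long genes of the list were not all in B2/B3, as GRIK4 (477.2 kb) and GRIN2B (444.8 kb) lay in A2. Of the B2/B3 members named, GRIA2 spans 146.0 kb and GRID1 spans 767.2 kb. Of the G protein-coupled glutamate receptors, 5 of 8 lay in B2/B3, among them GRM3, GRM5, GRM7 and GRM8, while GRM2, of 11.5 kb, lay in A2.

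The lists of synaptic and axonal adhesion genes differed in their shares. Contactins and their partners, which hold axons to glia and to each other, had 8 of 10 in B2/B3, including CNTN4 (959.1 kb), CNTN5 (1338 kb) and CNTNAP5 (895.9 kb). CNTNAP1, at 17.5 kb, lay in A1. Of the leucine-rich repeat proteins LRRTM, SLITRK and FLRT, 4 of 7 lay in B2/B3, among them LRRTM4 (774.7 kb). Of the neurexins and neuroligins 1 of 4 did, NLGN1. The 6 lists of glutamate receptors, GABA-A receptors and these adhesion genes together had 37 of 59 members in B2/B3 (62.7%).

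Cadherins had 9 of 22 members in B2/B3, and all 9 had code 1: CDH6, CDH9, CDH10, CDH12 and CDH18 on 5p, the arm richest in B2/B3, CDH8 and CDH11 on 16q, and CDH19 and CDH20 on 18q. Of the voltage-gated sodium channels, which carry the action potential, 4 of 9 lay there, SCN1A, SCN2A, SCN3A and SCN7A of chromosome 2. Voltage-gated potassium channels had 10 of 33. Clustered protocadherins, neuronal adhesion genes in a tandem array on chromosome 5, had 12 of 53 by leftmost coordinate and 25 of 53 by midpoint, so their placement depends on the rule; the other 41 lay in B4 by leftmost coordinate. The B2/B3 bin with most genes by leftmost coordinate, 7, is there (chr5:140800001-140850000, with PCDHA3, PCDHA4, PCDHA5 and PCDHA6 first), and it is a run of 1 bin.

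Genes of skin, hair and defence were placed by locus. All 33 keratin-associated proteins in B2/B3, of 59, lay in the single run chr21:29450001-31100000 of 1.65 Mb, which holds 36 protein-coding genes, and the other 26 lay in A1 and A2. Keratins themselves, the filaments of epithelia, had 0 of 44, all in A1. Of the next densest bins, 3 lay on chromosome 1 at chr1:152650001-152700000, chr1:152750001-152800000 and chr1:152800001-152850000. They held late cornified envelope genes of the epidermis such as LCE2A, LCE2B, LCE1D and LCE6A. These 3 bins are among 9 tied at 4 genes each, and came first by chromosome and position. Beta defensins, antimicrobial peptides, had 8 of 21, and serpins, protease inhibitors, had 8 of 25, of which 7 lay in 1 run that holds SERPINB3 and SERPINB4. Type I interferons had 1 of 17, IFNE.

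Several housekeeping and developmental lists had no or few members in B2/B3. Replication-dependent histones had 0 of 64 (interval up to 5.60%), HOX genes of the body plan 0 of 35 (up to 10.0%) and proteasome subunits 0 of 32 (up to 10.9%). Ribosomal proteins had 1 of 67, the retrogene RPL10L, and cyclins and their kinases 1 of 24, CDK14 (interval 0.105% to 21.1%). The intervals of the HOX, proteasome and cyclin lists include the background share of 9.13%. Zinc finger ZNF genes had 21 of 441 (4.76%), while 151 lay in B4. Writers, readers and erasers of DNA methylation had 0 of 11 (interval up to 28.5%), the H3K9 methylation and HP1 list 0 of 9 (up to 33.6%) and the lamina list 0 of 8 (up to 36.9%), and these short lists cannot be told from the background share. Forkhead genes had 3 of 33, which is close to the background. SOX genes, transcription factors of development, had 4 of 15 (26.7%, interval 7.79% to 55.1%), among them SOX5. Of 10 genes of intestinal epithelium and its tumours, 7 lay in a clustered bin and none of the 7 in B2/B3 (interval up to 41.0%). This list cannot be told from the background share either.

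The promoters of B2/B3 genes were poor in CpG. Outside chromosome 8, 1152 of 1367 B2/B3 genes (84.3%) and 11570 of 13986 genes of the other clusters (82.7%) had a sequence in the table. The median CpG ratio of the 250 bases before the start was 0.40 in B2/B3 (exact 95% interval 0.355 to 0.439) and 0.767 in the other clusters (0.761 to 0.772). A ratio under 0.4 was found in 576 of the 1152 B2/B3 genes and in 21.9% of the others. No CG at all was found in 11.5% and 1.94%. The median GC content was 48.8% against 63.2%. FCRL5 and PRPF18, printed above, were chosen as nearest these medians of the CpG ratio and not of the GC content.

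**Figure D4:**
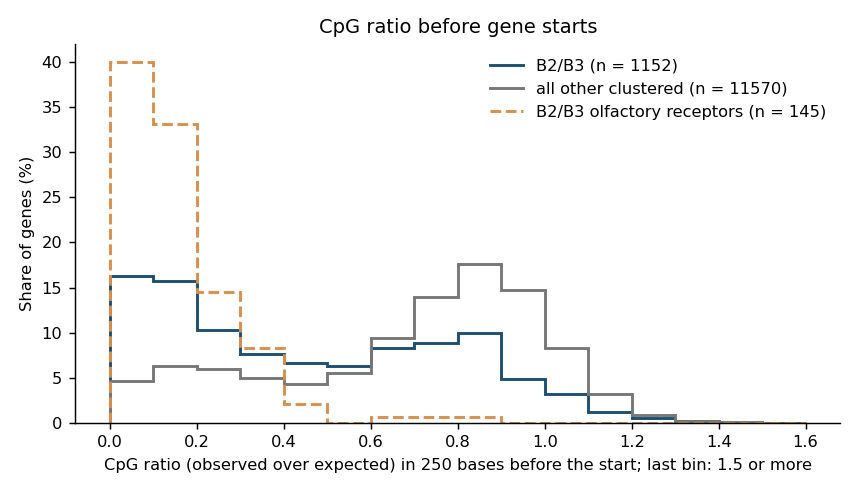
Share of genes (y axis, percent) by CpG ratio of the 250 bases before the start (x axis, steps of 0.1, ratios of 1.5 or more in the last step) for 1152 B2/B3 genes, 11570 genes of the other clusters and the 145 olfactory receptors in B2/B3. B2/B3 has a low and a high group of promoters, the other clusters peak at 0.8 to 0.9, and 95.9% of the olfactory receptors lie under 0.4.

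The low ratio was not confined to the tandem families. Olfactory receptors in B2/B3 had a median ratio of 0.129 (145 of 173 with sequence), and keratin-associated proteins one of 0.120 (30 of 33). Keratin-associated proteins in the other clusters had 0.146 (21 of 26), so a low ratio was found in this family on both sides. Of olfactory receptors in the other clusters 79.5% had a sequence, so no median is given and that family was not compared between clusters. Without both families, the B2/B3 median was 0.508 (977 genes), against 0.769 in the other clusters without them. Gene length also divided B2/B3: genes over 100 kb had a median of 0.667 (426 genes) and shorter ones 0.253 (726 genes). In the other clusters the same groups had 0.809 and 0.758. Both families were left in here, and their short genes add to the shorter group, so this division is not separate from theirs. By code, the median was 0.280 in code 1, 0.424 in code 2 and 0.563 in code 0, again with both families left in. Of the B2/B3 olfactory receptors, 99 lay in code 1, 62 in code 2 and 12 in code 0. All 33 keratin-associated genes of B2/B3 lay in code 1. Medians by code without these families were not computed.

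The letters TATAAA on the gene's own strand, the core of the TATA box, were found in the 250 bases before 175 of 1152 B2/B3 genes (15.2%) and 645 of 11570 others (5.57%). Counting its reverse complement TTTATA too, the shares were 20.6% and 7.69%. In the keratin-associated block printed above it was found before 21 of 30 genes, and keratin-associated genes in the other clusters had it before 15 of 21, a similar share. Without this family and the olfactory receptors, the shares were 12.9% and 5.41%. TATAAA is made of A and T only, and B2/B3 promoters hold more of both; their part in this difference was not tested.

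Contacts were then compared with the B2/B3 share of whole arms and chromosomes, because the contact tables give no values for single bins. In these sums the balanced signal was used, in which matrix balancing evens out the totals of the bins. The share of contacts between chromosomes was lower on chromosomes with more B2/B3 in each of the 7 libraries (Pearson r from -0.73 to -0.69 over 21 chromosomes). In untreated DNMT1-AID cells this share ran from 17.3% to 34.2%, and in untreated knockout cells from 20.4% to 38.9%. Within arms, the share of contacts at 10 Mb or more was higher on arms with more B2/B3 (r from 0.54 to 0.68 over 38 arms in the 7 libraries), and the share under 1 Mb was lower (r from -0.83 to -0.69). Arm length, gene density and B2/B3 share go together, as above, and the clusters were made from 1 of these libraries. Over the 21 chromosomes too, the B2/B3 share was higher on longer ones (r 0.54). In untreated DNMT1-AID cells, the long-range values were lowest on 18p (1.14%, 18.15 Mb long) and highest on 4q (22.9%, 139.5 Mb long). The r of these levels were not computed at equal length or gene density, so a relation with B2/B3 apart from both was not tested.

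After 4 d of auxin, the change in long-range contacts was graded by the B2/B3 share of the arm in both genotypes. On 5p, with 65.3% B2/B3, the share at 10 Mb or more was 15.0% in untreated DNMT1-AID cells, 13.3% at 4 d, 14.7% at 10 d and 15.0% after washout, and 10.2%, 11.2% and 11.4% in knockout cells without auxin, at 4 d and at 10 d. On 19p, with 1.84%, it was 3.93%, 2.60%, 3.11% and 3.86% in DNMT1-AID cells, and 3.26%, 2.77% and 3.30% in knockout cells. On the log2 scale, the change at 4 d was -0.17 on 5p and -0.60 on 19p in DNMT1-AID cells, and 0.13 and -0.23 in knockout cells.

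Over all 38 arms at 4 d in DNMT1-AID cells, the share was lower than without auxin on every arm, with a median log2 change of -0.21. The 5 arms with most B2/B3 (5p, 8q, 9p, 18q and 4p) had a median of -0.17, from -0.19 to -0.13, and the 5 arms with least (19p, 22q, 17p, 19q and 17q) one of -0.46, from -0.60 to -0.37. The groups of arms do not overlap. The log2 change rose with the B2/B3 share (r 0.85, rho 0.82), also at equal arm length (partial r 0.82), and less at equal gene density (0.62). Against gene density itself, on the log2 scale, r was -0.81.

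In knockout cells at 4 d, the share was higher on 29 of 38 arms. The 5 arms with most B2/B3 had a median log2 change of 0.11, from 0.10 to 0.13, and the 5 with least one of -0.09, from -0.23 to 0.01, again without overlap. The relation had r 0.76 and rho 0.74, and r 0.53 at equal gene density. Against gene density itself, r was -0.66. One rich arm stood off: 21q, with 45.6% B2/B3, went from 4.80% to 4.53%. The knockout comparison shares no library with the clusters, while the DNMT1-AID comparison divides by the library that made them. The arms of one comparison share both libraries, so no p is given.

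The relation was weaker at the other times. At 10 d the relation had r 0.37 in DNMT1-AID cells and 0.32 in knockout cells, and without 19p and 22q, the 2 arms farthest from the median, -0.02 and 0.10. After washout it was -0.04. At 10 d the share was higher than without auxin on 38 of 38 arms in knockout cells and on 27 in DNMT1-AID cells. The washout library has the fewest contacts, and it is the only one without a counterpart in knockout cells.

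**Figure D5:**
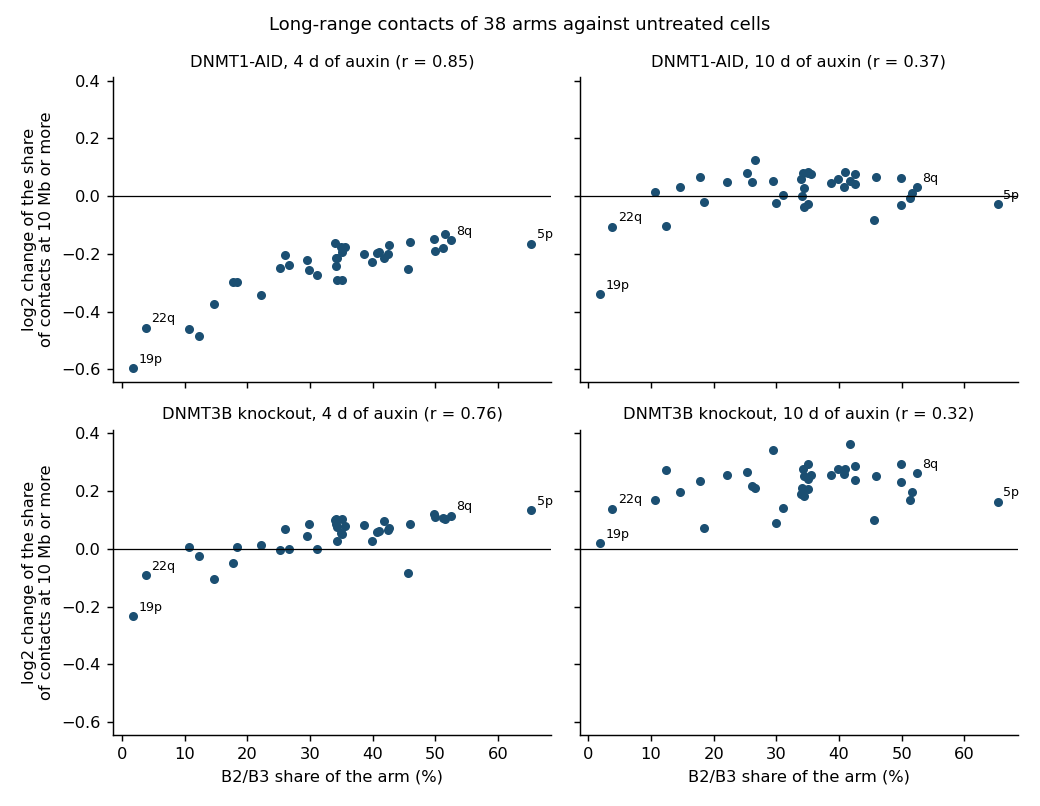
Log2 change of the share of contacts within an arm at 10 Mb or more, auxin against no auxin of the same genotype (y axis), by the B2/B3 share of the arm (x axis, percent), 1 point for each of 38 arms, 1 library for each condition. At 4 d the change rises with the B2/B3 share in DNMT1-AID cells (r 0.85) and knockout cells (r 0.76), and at 10 d the relation is weaker (0.37 and 0.32).

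Short-range contacts were compared in the same way, and the genotypes were not tested against each other. In knockout cells at 4 d, the log2 change of the share under 1 Mb fell as the B2/B3 share rose (r -0.91, and -0.78 at equal gene density). 8q, with 52.5% B2/B3, went from 58.3% to 57.0%, and 19p from 73.8% to 76.7%. In DNMT1-AID cells this share was higher at 4 d on 38 of 38 arms with no such relation (r -0.02). At the other times r was negative in both: -0.41 at 10 d and -0.54 after washout in DNMT1-AID cells, and -0.62 at 10 d in knockout cells. Without 19p and 22q these were -0.16, -0.41 and -0.51. At equal gene density they were 0.10, -0.01 and -0.33, in the same order. Changes within an arm are shares of 1 total, so the long-range and short-range values are not independent of each other.

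Contacts between chromosomes were also set against the B2/B3 share. At 10 d their share was higher than without auxin on 21 of 21 chromosomes in both genotypes. The 5 chromosomes with most B2/B3 (4, 8, 18, 21 and 5) had a median log2 change of 0.31 in DNMT1-AID cells and 0.24 in knockout cells, and the 5 with least (22, 19, 17, 20 and 15) 0.25 and 0.17. Those ranges overlap in both genotypes. The relation had r 0.49 and 0.36 with balanced signal and 0.70 and 0.69 with raw counts, so its size rests on the measure.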

How the data were processed

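Hi-C was made with an Arima kit, per the labels' protocols. The submitters' processing notes name BWA and the build hg38; the programs for filtering, balancing and clustering were not stated in the sources used here. The deposited tables give, per the file headers, the count of raw contacts and the sum of matrix-balanced signal by separation in 50 kb steps, within chromosomes, within arms and between chromosomes. The smallest separation was 100 kb. The authors deposited cluster codes and names for 1 library. Centromeres were taken as the end of the short arm in the contact tables.

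Gene positions came from a RefSeq table of GRCh38.p14, the assembly of hg38, and genes were placed by leftmost coordinate. Promoters are the 250 bases before the outermost listed start, outside chromosome 8. The A1 genes with a sequence were 79.2%, so no A1 median is given. The trans share counts contact ends between chromosomes among all contact ends, with contacts within chromosomes taken from 100 kb up. The depths and the share under 1 Mb leave out nearer contacts too. Correlations are Pearson's and Spearman's, without p. Python 3.11.15, pandas 2.3.3 and scipy 1.17.1 were used, and functions were tested on simulated data.

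The members and gene lists were chosen with earlier results of these data known. Genes were named by rule: for each list, up to 4 from the longest B2/B3 run that holds members; up to 4 of the longest genes in each of the 3 longest runs; the 10 longest genes; the 5 densest bins. Other members of the synaptic, cadherin, sodium channel and serpin lists, and the keratin-associated windows printed, were named after their values were seen. Alternative settings are given in the closing section. A few genes that the rule names are not reported here.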

Additional observations from a re-analysis of the deposited data

Results flagged for a closer look

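The arms richest in B2/B3 moved in opposite directions after 4 d of auxin in the 2 genotypes. Over 5p, 8q, 9p, 18q and 4p, the median log2 change of the share of contacts at 10 Mb or more was -0.17 in DNMT1-AID cells and 0.11 in DNMT3B knockout cells, and each of the 5 arms followed the direction of its genotype. The opposite directions were not particular to these arms: over all 38 arms the medians were -0.21 and 0.06. The share was lower on every arm in DNMT1-AID cells and higher on 29 arms in knockout cells. The difference between the genotypes was not tested, since each condition has 1 library, and the arms share them.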

How the results depend on the processing

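No paired analysis was possible because each group held 1 library. No result here comes from a test, so values are called moved where they leave the 95% interval of the reported value, or where r shifts by 0.1 or more. The surplus of B2/B3 within 5 Mb of a centromere (0.22 percentage points) turned to -0.13 within 2 Mb and -0.69 within 10 Mb, and was 1.05 in the inner 10% of arms. The deficit near telomeres kept its direction, with -0.93 within 2 Mb, -3.04 within 10 Mb and -1.30 in the outer 10%, against -2.35 within 5 Mb. The 5-cluster column kept 96.7% of the bins in mostly B2/B3 codes. The median run was 450 kb without single-bin runs. The gene share was 11.1% by any overlap and 18.1% over all gene classes. Median gene length was 5.30 kb over all classes, where it was 6.63 kb in the other clusters, and 65.8 kb without olfactory receptors and keratin-associated proteins. Without genes over 100 kb, the promoter CpG ratio was 0.253 and GC content 44.8%; without both families they were 0.508 and 52.4%. Clustered protocadherins went to 47.2% by midpoint. The 5-cluster column, leaving out both families, leaving out the 2 farthest points and the partial correlations were chosen after seeing the data. The causes were not tested.

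For the change at 10 Mb or more at 4 d, r moved only at equal gene density, to 0.62 in DNMT1-AID and 0.53 in knockout cells, among the 5 alternatives tried. At 10 d, r was -0.0234 and 0.10 without 19p and 22q, 0.15 and 0.0115 at equal length, and 0.0062 and 0.22 at equal gene density, in the same order; after washout the 3 values were -0.31, -0.16 and -0.24. For the share under 1 Mb at 4 d, r in DNMT1-AID cells was 0.22 without the 2 farthest arms, -0.23 at equal length and 0.41 at equal gene density, and in knockout cells -0.78 at equal gene density. For the share between chromosomes at 10 d, raw counts gave 0.70 and 0.69, leaving out chromosomes 22 and 19 gave 0.74 and 0.60, equal length gave 0.30 and 0.51, and equal gene density gave 0.63 in DNMT1-AID cells. Leaving out chromosome 8 moved none of these r by 0.1, and chromosome X was not in the table. The spread between cultures is unknown.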
